A study of Rattus norvegicus with 4 samples.

Results

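Egr1, Egr2, Egr3, Egr4, Nr4a1, Nr4a2, Nr4a3, Arc and Homer1 are genes whose transcripts are used as markers of recent neuronal activity, and their expression was examined in injured rat cortex after an experimental stroke. The genes were read through every probe set whose only gene symbol in the array's annotation was one of the 9. This gave 9 of the 4736 genes with a symbol of their own on the array, and 22 of 8740 probe sets that are not controls. The animals were ovariectomised female rats in which the middle cerebral artery was closed from inside the vessel for 2 h, and they received 17beta-estradiol (titles: Estrogen) or placebo. Strain and age are not given in the sources used here. Each array carried RNA pooled from 3 animals, and each treatment had 2 pools, here called estradiol 1 and 2 and placebo 1 and 2 after the numbers in the titles. The design text names 6 and 24 h after the occlusion as sampling times, but the titles carry only a code, so the values below are tied to no time. Both groups had a stroke and removal of the ovaries, and all 4 arrays came from the injured side, so a level in uninjured cortex was not analysed here.

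Egr proteins are zinc-finger transcription factors and Nr4a proteins are nuclear receptors that act without a known hormone in most settings. Arc is a protein of dendrites that promotes removal of AMPA-type glutamate receptors from synapses, and Homer1 encodes scaffolds that tie metabotropic glutamate receptors to other postsynaptic proteins, with a short activity-induced form and longer constitutive forms. Most of these genes are immediate early genes: calcium and kinase signals switch them on within minutes through factors that are already present, chiefly serum response factor with its partners at CArG boxes and CREB at cyclic AMP response elements (CREs). Glutamate release and depolarisation around an infarct are known to induce them in cortex.

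The promoters of Egr1, Egr2 and Nr4a1 are shown because probe sets of these 3 genes differed together between pools, as described below. RefSeq sequences of build GRCr8 were found for 6 of the 9 genes, and not for Egr3, Nr4a3 and Arc. Probe sets of Arc and Nr4a3 also differed between pools in this direction, but no promoter of theirs could be shown. The start used for Nr4a1 and that for Egr2 lie inside the gene's span, since other transcripts of each start farther upstream. Each line gives the 250 bases before the start, 5′ to 3′ on the gene's strand, with CArG boxes and CRE core sites (the shorter CRE motif CGTCA on either strand) in capitals.
Egr1, chr18:26736828-26737077, plus strand: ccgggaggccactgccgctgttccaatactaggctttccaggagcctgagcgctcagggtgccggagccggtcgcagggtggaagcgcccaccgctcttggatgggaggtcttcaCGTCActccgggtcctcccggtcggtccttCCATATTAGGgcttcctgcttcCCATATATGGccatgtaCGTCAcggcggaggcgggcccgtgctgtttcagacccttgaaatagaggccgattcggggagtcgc
Egr2, chr20:21054442-21054691, minus strand: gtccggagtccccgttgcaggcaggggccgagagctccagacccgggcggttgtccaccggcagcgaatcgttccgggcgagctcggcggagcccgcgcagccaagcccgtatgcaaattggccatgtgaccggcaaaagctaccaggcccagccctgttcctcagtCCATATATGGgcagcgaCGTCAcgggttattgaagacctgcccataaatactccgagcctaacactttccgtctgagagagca
Nr4a1, chr7:134259888-134260137, plus strand: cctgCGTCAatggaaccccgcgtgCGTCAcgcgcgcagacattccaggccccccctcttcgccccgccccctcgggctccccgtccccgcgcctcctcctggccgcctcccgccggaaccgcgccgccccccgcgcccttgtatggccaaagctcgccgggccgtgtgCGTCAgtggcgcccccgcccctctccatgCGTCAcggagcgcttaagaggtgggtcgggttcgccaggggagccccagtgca

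Egr1 held 2 CArG boxes and 2 CRE core sites. Egr2 held 1 of each, with both motifs at the same distance from the start as a pair in Egr1: the box from 83 to 74 bases and the core site from 66 to 62 bases before it. Nr4a1 held no CArG box and 4 core sites, together with 1 match to the Egr-type site GCGGGGGCG between 73 and 65 bases before its start. Among the other genes found, Egr4 held 2 core sites, Nr4a2 held 1 and Homer1 held none. A CArG box stood in 1.5% of 33469 promoter windows of this length, the core site CGTCA in 18.2% and GCGGGGGCG in 2.45%. The full CRE TGACGTCA (1.59% of windows), the Nr4a site AAAGGTCA (1.24%) and the Egr site GCGTGGGCG (0.478%) had no match in the 6 windows. Both strands were searched, and TGACGTCA contains the core site. A match describes letters in this window and is not evidence of binding.

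**Figure D1:**
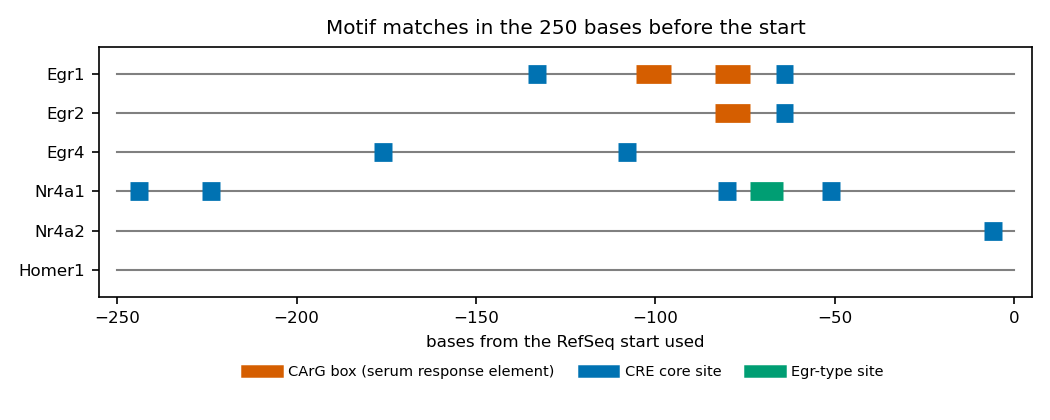
Positions of motif matches in the 250 bases before the RefSeq start of the 6 genes found, with distance from the start in bases on the x axis and 1 line per gene. Coloured blocks are CArG boxes, CRE core sites and the Egr-type site; Egr1 and Egr2 share a box and a core site at equal distances, and Homer1 has no block.

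The arrays had median intensities between 55.0 and 57.8, in the arbitrary linear units of the deposited table, and 58.9 to 64.6% of probe sets were brighter than the highest control for a foreign transcript on the same array. That highest control was 30.1 to 37.8, and a value at or below it is called at background. Of 6 measured markers of cortical excitatory neurons, 2 were at background on all arrays, Nptxr and Slc17a7, a vesicular glutamate transporter gene. Camk2a was at background in placebo 1, while Neurod2, Cck and Nrgn were above it on every array, Nrgn at 3855 to 5561. Marker sums did not overlap between treatments for striatum, blood cells, vascular cells, cortical excitatory neurons and astrocytes. Striatum had 2814 and 2624 with estradiol against 1880 and 1969 with placebo (6 of 8 tested genes above 0). Blood cells had 1872 and 4249 against 6173 and 5319 (5 of 5 below 0), and vascular cells 654 and 640 against 938 and 789 (6 of 6 below 0). Cortical excitatory neurons had 5648 and 5324 against 6771 and 7707 (3 of 4 below 0). Astrocytes had 11273 and 11030 against 12344.5 and 11474 (6 of 8 below 0). Over all 3181 tested genes, 1667 were above 0 and 1514 below. At an unadjusted p below 0.05 in limma 3 of 8 striatum, 3 of 5 blood cell and 2 of 6 vascular genes passed. So did 1 of 4 cortical excitatory neuron genes, Cck, and 0 of 8 astrocyte genes. The share over all 3181 genes was 2.58%, and none passed after adjustment. Drd2, a striatal dopamine receptor gene, and Vwf of endothelium were at background on all arrays. Choroid plexus and meninges markers set estradiol 2 and placebo 1 apart, with sums of 725, 5165, 9053 and 557 in the order estradiol 1 and 2 and placebo 1 and 2. The part of these tissues in the values below was not tested. Fewer cells of a type and less RNA per cell cannot be told apart in such tissue. P-values measure the spread between pools and not between animals. In limma that spread is drawn towards the spread of other probe sets of similar intensity (2 residual and 5.63 prior degrees of freedom).

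None of the member probe sets passed the adjusted threshold between estradiol and placebo. Differences were tested with limma on log2(intensity + 16) over 5244 probe sets, and 0 of them passed a Benjamini-Hochberg adjusted p of 0.05 in either direction (percent called 0%), with 161, or 3.07%, at an unadjusted p below 0.05. Of the 22 member probe sets, 19 passed the filter on low intensity and were tested, and 2 of these had an unadjusted p below 0.05. All 19 had an adjusted p of 0.998. The log2 fold change of estradiol over placebo was above 0 in 8 (51.6% of all tested) and below 0 in 11 (48.4% of all tested), with a median of -0.04, against 0.01 over all tested probe sets. Both estradiol pools lay above both placebo pools in 3 of the 19 (15.4% of all tested) and below them in 2 (14.3% of all tested), shares near the background. For a single probe set, an exact permutation test of 2 against 2 pools cannot give a two-sided p below 0.333.

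**Figure D2:**
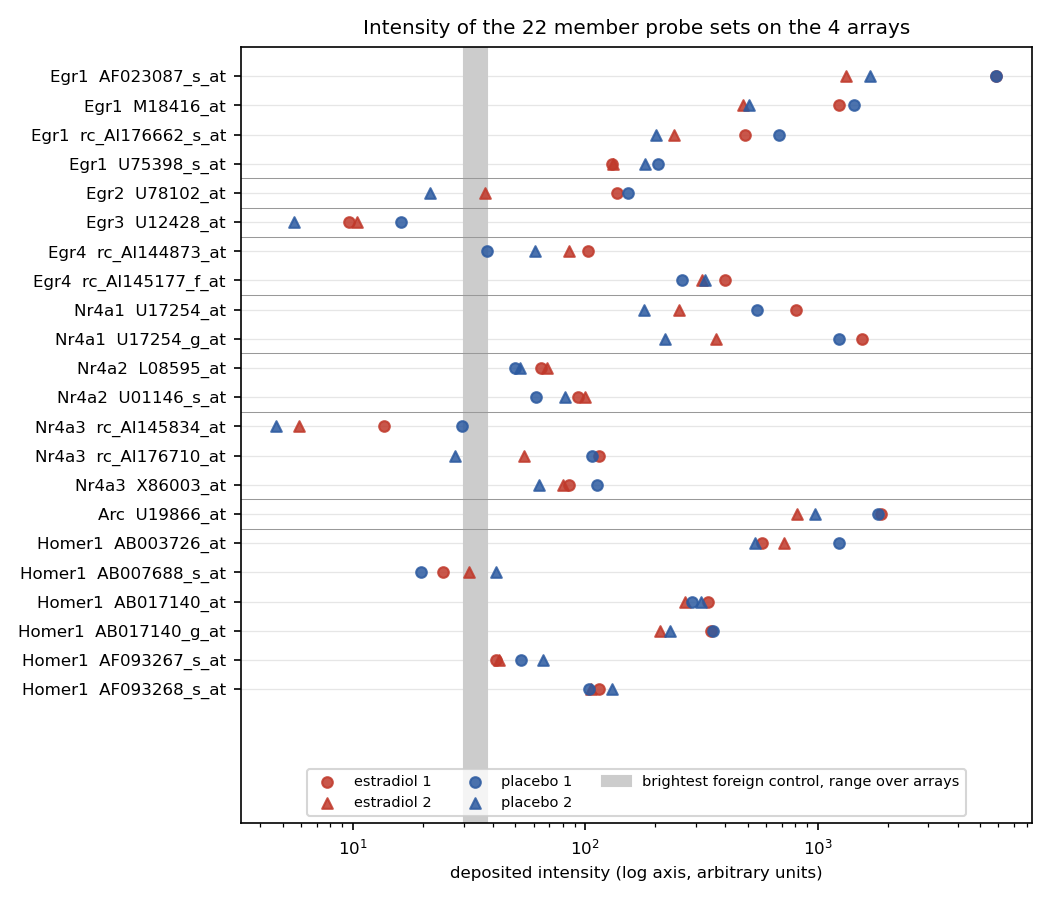
Deposited intensity of the 22 member probe sets (log axis) on the 4 arrays, estradiol in red and placebo in blue, pool 1 as circles and pool 2 as triangles. In 11 probe sets the circles of both treatments lie to the right of the triangles: 3 of Egr1, those of Egr2, Nr4a1, Nr4a3 and Arc, and AB017140_g_at of Homer1. The grey band spans the brightest foreign control of the arrays, 30.1 to 37.8.

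Egr1, the most studied of the Egr factors, did not separate by treatment. Its probe set AF023087_s_at had intensities of 5842 in estradiol 1, 1324 in estradiol 2, 5858 in placebo 1 and 1677 in placebo 2. Both pools numbered 1 were high and both numbered 2 were low, so the treatments overlapped. The means were 3583 ± 3195 (SD, n = 2) and 3767 ± 2956 (SD, n = 2), a log2 fold change of -0.17 ± 0.73 (SE). The sign was set by which pools were compared: the value was -1.24 without estradiol 1 and 0.89 without estradiol 2. In the same order of pools M18416_at had 1237 and 479 against 1432 and 509, and rc_AI176662_s_at 488 and 241.5 against 684 and 202, in the same arrangement of high and low pools. The fourth Egr1 probe set, U75398_s_at, had another arrangement, with 130 and 132 in the estradiol pools and 206 and 181 in the placebo pools. Both estradiol values lay below both placebo values, and the fit gave a log2 fold change of -0.51 ± 0.22 (SE), a 95% interval from -1.01 to -0.0050 and an unadjusted p of 0.0483 in limma.

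Egr2, a factor also known from myelinating glia, had 137 and 37.2 in the estradiol pools against 153 and 21.5 in the placebo pools. Both pools numbered 2 were at background, so its log2 fold change of 0.18 ± 0.73 (SE) says little of treatment, and it was -0.58 without estradiol 1 and 1.27 without placebo 1. The mean of Egr2 passed the intensity filter through the pools numbered 1. Egr3, read by 1 probe set, was at background on every array, with 9.6 and 10.4 against 16.2 and 5.6, and was not tested.

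Egr4 was the Egr gene with higher values under estradiol in 1 of its probe sets. Intensities on rc_AI144873_at were 102.5 and 85.1 under estradiol against 37.9 and 60.6 under placebo, and the groups did not overlap. Placebo 1 lay just above its background of 37.8. The means were 93.8 ± 12.3 (SD, n = 2) and 49.2 ± 16.1 (SD, n = 2). The fitted log2 fold change was 0.77 ± 0.30 (SE), with a 95% interval from 0.07 to 1.46 and an unadjusted p of 0.0344 in limma. The other Egr4 probe set, rc_AI145177_f_at, carries the suffix of a probe set shared within a sequence family and is uncertain for that reason. Its values of 400.3 and 318 under estradiol overlapped those of 260 and 327 under placebo, and it gave 0.28 ± 0.23 (SE).

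Nr4a1, also called Nur77, had the widest interval among the members tested. Its probe set U17254_g_at had intensities of 1557 in estradiol 1, 365 in estradiol 2, 1233 in placebo 1 and 220 in placebo 2. Each estradiol pool was above the placebo pool of the same number, by 0.33 and 0.69 on the log2 scale, but estradiol 2 lay far below placebo 1. The log2 fold change was 0.51 ± 0.83 (SE), with a 95% interval from -1.42 to 2.44, and it was -0.51 without estradiol 1, -0.69 without placebo 2 and 1.71 without placebo 1. U17254_at, designed on the same sequence and so not independent, had 811 and 253 against 551 and 178 and gave 0.51 ± 0.61 (SE).

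Nr4a2, or Nurr1, the member of the family needed for dopamine neurons, showed close pools within each treatment on L08595_at. On U01146_s_at the estradiol pools were close, while placebo 1 minus placebo 2 was -0.34 on the log2 scale. L08595_at had 64.5 and 68.5 under estradiol against 50.0 and 52.2 under placebo, and U01146_s_at 93.2 and 99.5 against 61.5 and 82.0. In both probe sets the estradiol pools lay above the placebo pools without overlap. The log2 fold changes were 0.30 ± 0.28 (SE) and 0.37 ± 0.26 (SE), and the 95% intervals, from -0.36 to 0.95 and from -0.24 to 0.97, included 0. The sign stayed above 0 with any 1 array left out, between 0.20 and 0.54 for U01146_s_at.

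Nr4a3, or NOR-1, was read by 3 probe sets. On rc_AI176710_at its intensity was 115 in estradiol 1, 54.5 in estradiol 2, 107 in placebo 1 and 27.6 in placebo 2, the last at background, with a log2 fold change of 0.39 ± 0.52 (SE) that was -0.36 without placebo 2. X86003_at had 85.1 and 80.0 against 112 and 63.6 and gave -0.04 ± 0.30 (SE), which changed sign without estradiol 2 and without placebo 1 (0.31). The third probe set, rc_AI145834_at, was at background on every array, between 4.7 and 29.5, and was not tested. The treatments overlapped in all 3.

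Arc had intensities of 1883 in estradiol 1, 817 in estradiol 2, 1819 in placebo 1 and 975 in placebo 2. Both treatments had 1 high and 1 low pool, and their means were close, 1350 ± 754 (SD, n = 2) and 1397 ± 597 (SD, n = 2). The log2 fold change was -0.10 ± 0.42 (SE), with a 95% interval from -1.08 to 0.88, and it was 0.49 without estradiol 2 and -0.69 without estradiol 1.

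Homer1 was read by 6 probe sets, and which isoform each of them reads was not analysed here. AB003726_at had 578 and 718 in the estradiol pools against 1234 and 540 in placebo 1 and 2, so that placebo 1 alone was high. Its log2 fold change was -0.34 ± 0.36 (SE), and 0.25 without placebo 1. AF093267_s_at had 41.2 and 42.4 under estradiol against 52.9 and 65.6 under placebo, without overlap, and gave -0.38 ± 0.31 (SE) close to the background level. AB017140_at (336 and 268 against 289 and 316), AB017140_g_at (348 and 209.5 against 355 and 232) and AF093268_s_at (114 and 106 against 104 and 131) gave log2 fold changes between -0.08 and -0.01. AB007688_s_at had 24.5 and 31.8 against 19.7 and 41.3, above background in placebo 2 alone, and was not tested.

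**Figure D3:**
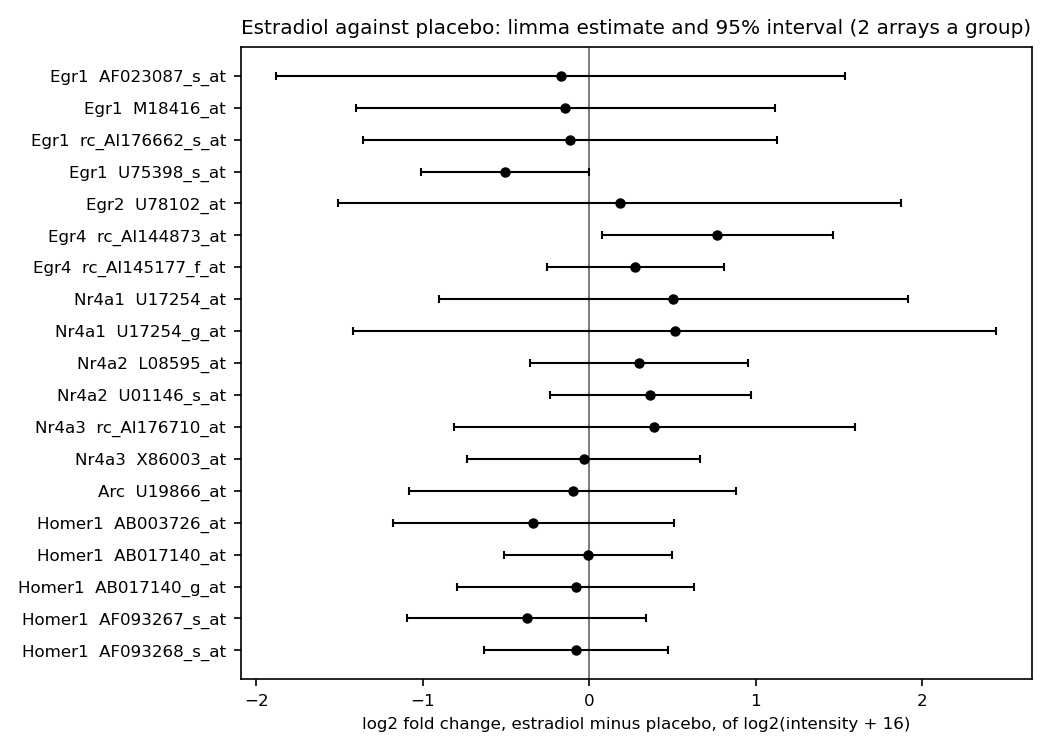
Log2 fold change of estradiol minus placebo, from limma on log2(intensity + 16), for the 19 tested member probe sets, with bars for the 95% interval and 2 arrays per group. The intervals of rc_AI144873_at of Egr4 (0.07 to 1.46) and U75398_s_at of Egr1 (-1.01 to -0.0050) leave out 0 before adjustment, and that of Nr4a1 U17254_g_at is the widest, from -1.42 to 2.44.

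For most of the Egr1, Nr4a1 and Arc probe sets, and for that of Egr2, the pools of a treatment differed far more than the treatments. Both pools numbered 1 lay above both pools numbered 2 in 10 of the 19 tested member probe sets, against 17.4% of all tested, and below them in 0, against 21.3% of all tested. Without Egr2, which passed the filter through the pools where it was high, 9 of 18 probe sets lay above. Several of these probe sets read the same gene. By the probe set of highest mean, 5 of 8 tested member genes lay above, Egr2 among them (16% of 3181 genes), and 0 below (22.9% of 3181 genes). Over all 22 member probe sets the counts above and below were 11 and 1, the added ones being rc_AI145834_at of Nr4a3, at background throughout, and AB007688_s_at of Homer1. The numbers come from the titles, and no label says that an equal number marks a shared day or batch. The pattern was known from earlier results of these data and is given without a test.

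Nr4a1 had the highest mean difference between pools 1 and 2 of all 5244 probe sets, on U17254_g_at, which was 4.27-fold brighter in estradiol 1 than in estradiol 2 and 5.61-fold brighter in placebo 1 than in placebo 2. For Egr1 on AF023087_s_at, with the fourth highest mean difference, the ratios were 4.41 and 3.49. The Egr2 probe set was at least 3.63-fold brighter with estradiol and at least 5.08-fold with placebo, bounds that take the foreign control level for the dim pool. For Arc the ratios were 2.31 and 1.87. The difference on the log2(intensity + 16) scale was above 1 in both treatments for 5 member probe sets, 2 each of Egr1 and Nr4a1 and that of Egr2, and for 24 of all tested, or 0.458%. Without Egr2 there were 4 member probe sets. Among the 24, 4 had no single gene symbol, and whether any of them reads Egr4, Homer1 or another of the 9 genes was not analysed here, so these counts cover named probe sets alone.

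Whether an unnamed probe set reads Egr4 or Homer1 was not analysed here, so named probe sets do not settle whether these genes had the arrangement. Among the named probe sets of the other members it was mixed. Neither named Egr4 probe set showed it, with mean log2 differences between pools 1 and 2 of -0.14 and 0.0033, nor did those of Nr4a2, with -0.06 and -0.21. Both tested probe sets of Nr4a3 were brighter in both pools numbered 1. With placebo rc_AI176710_at was at least 3.56-fold brighter, since placebo 2 was at background, and with estradiol the ratio was 2.11. X86003_at had a mean log2 difference of 0.38. In Homer1 AB003726_at the difference was 1.17 with placebo and -0.31 with estradiol, whereas AB017140_g_at, with 0.58 and 0.69, was brighter in both pools numbered 1. The U75398_s_at probe set of Egr1, with 0.18 and -0.01, differed in this from the other 3 of its gene.

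**Figure D4:**
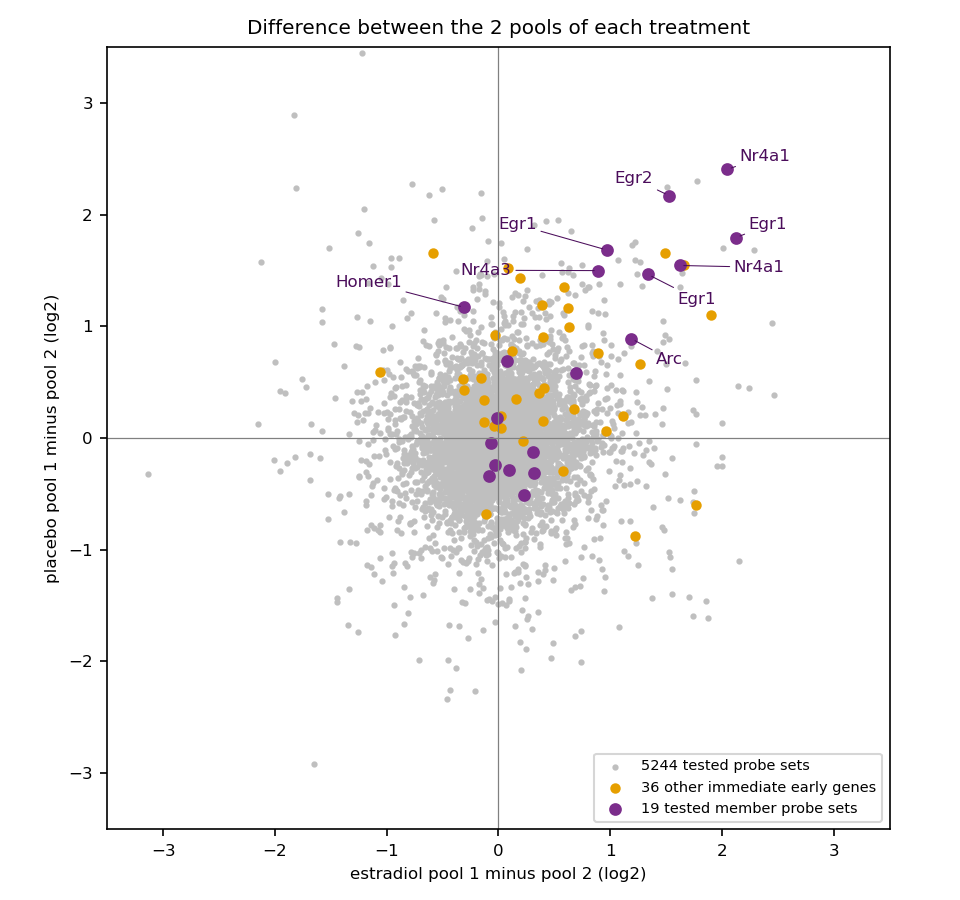
Log2 difference between pool 1 and pool 2 with estradiol (x axis) and with placebo (y axis) for all 5244 tested probe sets in grey, 36 other immediate early genes in orange and the 19 tested member probe sets in purple; 2 grey points lie beyond the axis limit of 3.5. Probe sets of Egr1, Egr2, Nr4a1, Nr4a3 and Arc lie at the upper right, brighter in pool 1 of both treatments, and Homer1 AB003726_at lies to the left of 0 with estradiol.

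Other immediate early genes were read from a list of 62, of which 40 were measured and 36 tested, each by its probe set of highest mean. None passed the adjusted threshold or an unadjusted p of 0.05 between treatments in limma (0% and 2.58% of 3181 genes). The log2 fold change was above 0 in 22 and below 0 in 14, with a median of 0.10. Cebpb, an inflammatory transcription factor gene, had 0.66 ± 0.29 (SE) and Plat, which encodes tissue plasminogen activator, 0.53 ± 0.43. At the other end Ier5, at background in estradiol 2, had -0.67 ± 0.54 and Crem, a CREB family gene, -0.50 ± 0.31.

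Between pools, 19 of these 36 genes were brighter in both pools numbered 1 (16% of 3181 genes) and 0 were dimmer (22.9% of 3181 genes). The median difference was 0.38 with estradiol and 0.48 with placebo, against -0.02 and -0.05 over all genes. Fos had 1866 in estradiol 1, 578 in estradiol 2, 1326 in placebo 1 and 443 in placebo 2. Junb had 720 and 246 against 533 and 159, and Dusp1, a phosphatase gene that limits MAP kinase signalling, had 387 and 91.9 against 314 and 137. These genes were high in the same pools as Egr1, Nr4a1 and Arc.

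Regulators and partners of Egr and Nr4a proteins, such as kinases, CREB and retinoid X receptors, had 8 tested genes of 24 listed. None passed between treatments at an unadjusted p of 0.05, with 2 above and 6 below 0 and a median of -0.14. Nr2f1 had 0.13 and Map2k1, an ERK pathway kinase gene, 0.03, while Rxrb, a partner receptor of Nr4a1, had -0.37 and Nr3c1 -0.31, with estradiol 1 at background. Between pools, 0 of the 8 were brighter in both pools numbered 1 (16% of all genes) and 2, Creb1 and Prkaca, were dimmer (22.9% of all genes), a share near the background.

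Postsynaptic partners of Arc and Homer1 had 19 tested genes of 24 listed, again with 0 at an unadjusted p of 0.05 between treatments. There were 9 above and 10 below 0, with a median of -0.01. Homer2, a relative of Homer1, had 0.41 and Gria2, an AMPA receptor subunit gene, 0.40, whereas Dnm2 had -0.77 and Shank1, a scaffold that binds Homer proteins, -0.51. These fitted values are not measured folds, since Dnm2 was at background in estradiol 1 (27.0) and Shank1 in both estradiol pools (31.9 and 34.3). Between pools, 7 of the 19 were dimmer in both pools numbered 1 (22.9% of all genes) and 0 were brighter (16% of all genes). Gria2 was among them, with 148.5 and 260 in the estradiol pools against 115 and 184 in the placebo pools.

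Markers of some cell types moved with the pool numbers as well. Oligodendrocyte markers were brighter in both pools numbered 1 in 5 of 5 tested genes (16% of all genes), and their summed intensity was 16351 in estradiol 1, 12394 in estradiol 2, 20388 in placebo 1 and 13094 in placebo 2. Neuron markers were dimmer there in 7 of 10 (22.9% of all genes), with sums of 13209 and 13772 and of 12077 and 15993. None of these markers was at background on all arrays. Of the neutrophil genes, 2 were tested, S100a8 and S100a9, and both were brighter in both pools numbered 1 (16% of all genes), with sums over the 5 measured of 342 and 265 and of 381 and 235. For S100a8 the placebo pools were nearly equal, with 94.6 in placebo 1 and 91.4 in placebo 2. The part of these cell types in the pool difference of Egr1, Nr4a1 and Arc was not tested. The 3′ to 5′ ratio of the GAPDH control, a measure of RNA integrity, was 1.38 and 1.30 in the estradiol pools against 1.45 and 1.42 in the placebo pools. That of actin was lower in both pools numbered 1, with 1.28 and 1.39 in estradiol 1 and placebo 1 against 1.58 and 1.47 in estradiol 2 and placebo 2. The GAPDH ratio went the other way, higher in pool 1 than in pool 2 within each treatment. The part of RNA integrity in the pool difference was not tested either.

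**Figure D5:**
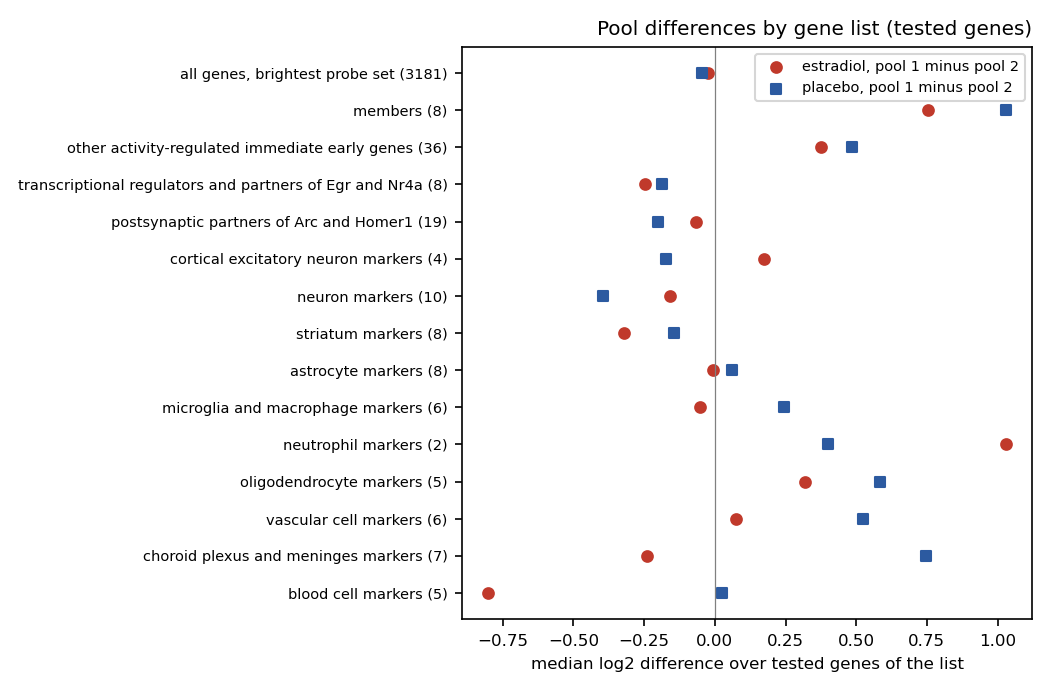
Median log2 difference between pool 1 and pool 2 over the tested genes of each list, with estradiol (red circles) and placebo (blue squares); the number of tested genes stands in brackets. The 8 tested member genes have medians of 0.75 and 1.03 and the 36 other immediate early genes 0.38 and 0.48, while neuron markers lie below 0 at -0.16 and -0.40.

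Genes with the most similar profile were sought for Egr1, Nr4a1 and Arc as the smallest root mean square difference between centred log2 profiles over the 4 arrays, among 3180 other genes. For Egr1 they were Kng2 (0.24), Dusp1 (0.26), Egr2 (0.31), Gstk1 (0.33) and Hspb1 (0.34). For Nr4a1 they were Egr2 (0.26), Junb (0.33), Fos (0.33), Egr1 (0.40) and Hspb1, a small heat shock protein gene (0.43). For Arc the closest was Hspa1a, the inducible heat shock protein 70 gene, with a difference of 0.03, with 4576 and 2003 in the estradiol pools against 4416 and 2489 in the placebo pools. Cyp3a9 (0.08), Trappc3 (0.13), Fer (0.13) and Ndufb1 (0.14) followed. With 4 arrays such a likeness is a description only, and Kng2 was at background in both pools numbered 2 and Fer in estradiol 2.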

How the data were processed

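Each of 4 arrays (Affymetrix rat genome GeneChip, array A) measured cortex RNA pooled from 3 rats, per the labels and series design text. Values in the deposited table are linear intensities, 1 for each probe set and array, scaled by the authors before deposit, since trimmed means agree between arrays (150.18 to 150.20). Which program made them is not stated in any source used here. Of 8799 rows, 59 controls were left out, and 23 controls for foreign transcripts gave the background. Probe sets with a mean below the 40th percentile (37.5) were left out of tests. Intensities were tested as log2(value + 16) with limma 3.58.1 in R 4.3.3 (lmFit, eBayes with trend, two-sided, Benjamini-Hochberg over 5244 probe sets). The offset understates changes of dim probe sets. The fit was also run on simulated data with independent noise of the same SD for every probe set. That setting lacks the shared pool differences described here and says nothing of them. Genes were named from 7006 probe sets with 1 symbol (308 had several and 1426 none). The identifiers of 6985 of these 7006 matched RefSeq. Tables and plots used Python 3.11.15, pandas 2.3.3 and matplotlib 3.10.9. The number of arrays limits the precision.

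Members and lists were chosen with earlier results of these data known. Named genes were all members, the 2 highest and 2 lowest log2 fold changes of each pathway list, and the 5 genes nearest in profile to Egr1, Nr4a1 and Arc. Genes named beside these were chosen after their values were seen. Alternatives were offsets of 1 and 64, no filter or one at the 60th percentile, quantile normalisation, median centring, no trend, the replicate number as a block, each array left out, and the mean of a gene's probe sets.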

Additional observations from a re-analysis of the deposited data

How the results depend on the processing

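The counts of 0 called probe sets, over all tested and over the members, held under every alternative run in limma, with 1 to 4 member probe sets at an unadjusted p below 0.05 with all 4 arrays and 0 to 2 with 1 array left out. With 2 pools a group a shared number does not establish pairing, since no label says what it marks. The log2 differences between pools 1 and 2 correlated at r = 0.0363 (Spearman's rho 0.107) between treatments over the tested probe sets. This value is across genes, which are not independent, and is a description only: pairing was not tested. With the replicate block, 0 probe sets were called and 4 of 19 member probe sets had an unadjusted p below 0.05 in limma, against 2 without it; the 2 added ones were those of Nr4a1 (0.0345 and 0.0366). Of the 19 fitted log2 fold changes, 13 changed sign with an array left out and 0 under any other setting. With 1 array left out, in a fit that takes the lone pool to vary like the others, the values ranged from -1.24 to 0.89, -0.88 to 0.59 and -0.96 to 0.73 for the Egr1 probe sets AF023087_s_at, M18416_at and rc_AI176662_s_at, from -0.90 to 1.27 for Egr2, from -0.31 to 1.32 and -0.69 to 1.71 for U17254_at and U17254_g_at of Nr4a1, and from -0.69 to 0.49 for Arc. They ranged from -0.36 to 1.14 and -0.38 to 0.31 for rc_AI176710_at and X86003_at of Nr4a3, and from -0.92 to 0.25, -0.16 to 0.15, -0.43 to 0.26 and -0.22 to 0.066 for AB003726_at, AB017140_at, AB017140_g_at and AF093268_s_at of Homer1. As the mean of its tested probe sets, Nr4a3 had 0.18, against -0.04 for the probe set of highest mean. Of 76 pool differences under other offsets and normalisations, 0 of those without overlap changed sign. From the main setting, 9 moved by more than the SD of the 2 values, estradiol and placebo, behind each mean. With an offset of 64 the mean difference was 0.75 for rc_AI176710_at of Nr4a3 (1.20 with 16) and 1.17 for Egr2 (1.85 with 16). Probe sets near background, such as Egr2 in the pools numbered 2, limit what can be read.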
